A study of Danaus plexippus with 32 samples.

Results

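*Vri* (*vrille*, DPOGS208606) and *Cwo* (*clockwork orange*, DPOGS209925) are 2 transcription factor genes of the circadian clock, chosen by their identifiers out of 15130 genes with a value in each of 32 RNA-seq libraries of monarch butterfly (*Danaus plexippus*) brains. Both were among the 10412 genes taken as expressed, that is, with at least 3 FPKM (fragments scaled by transcript length and by all mapped reads) in at least 1 wild-type library. The brains came from *Cry2* KO, *Clk* KO and wild-type adults, which all had the same diet and at least 7 days of entrainment at 25°C in 15 h of light and 9 h of darkness. Knockouts were sampled at ZT4, ZT10, ZT16 and ZT22 (hours of Zeitgeber Time, with lights on at its zero) and wild-type adults also at ZT1, ZT7, ZT13 and ZT19. Each of the 16 groups of genotype and time had 1 female and 1 male library, each from 3 pooled brains dissected free of the photoreceptors of the eye. The knockout strains lack a functional CRY2 or CLK, and their alleles are not given in the sources used here. Females are always replicate 2 and males replicate 1, so sex and replicate number cannot be told apart.

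In the insect clock, the activators CLK and BMAL1 (CYC in *Drosophila*) switch on the genes of their own repressors, and the repressors feed back on the activators with a daily period. In monarchs the main transcriptional repressor is CRY2, an insect cryptochrome like those of mammals. In *Drosophila*, VRI is a basic leucine zipper protein that represses *Clk*, and CWO is a basic helix-loop-helix protein of the Hairy/E(spl) and Orange kind that competes with CLK at E-box elements. Both fly genes are themselves switched on by CLK. The knockouts thus pose the question of how the mRNA of each gene behaves without the activator and without the repressor.

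The locus of *Vri* lies on scaffold DPSCF300052 from 257703 to 259229 and that of *Cwo* on scaffold DPSCF300180 from 115531 to 130653 (assembly v3). Depth was highest for *Vri*, with 112 to 727 reads behind a value (median 228.5), against 33 to 240 (median 117) for *Cwo*. The 95% interval that came with each value had a median half-width of 13.2% of the value for *Vri* and 18.5% for *Cwo*, and covers counting error alone.

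The female wild-type ZT22 library stood apart. With it as the lone wild-type library of ZT22, 4111 genes were called in *Cry2* knockouts minus wild-type at ZT22, against 23 with the male library alone and 430 with both. It had the most reads on genes of all libraries, although the paper gives more mapped reads for some others. Its label was kept, and the reason for the gap was not tested. The mean differences of both genes in *Clk* knockouts minus wild-type, that of *Cwo* in *Cry2* knockouts minus wild-type, and both wild-type rhythms were called with both libraries and with either one left out. Counts over all genes moved more: without the male library, those in *Clk* knockouts minus wild-type at ZT22 went to 3939 in place of 178, those of a changed difference over time to 1875 in place of 8 (*Cry2* knockouts) and 2055 in place of 13 (*Clk* knockouts), and those of a wild-type time effect to 2030 in place of 51, so the shares of genes called given below hold for all libraries together. The gap between both libraries enters the error that all groups share, so that leaving out either can also move the p-value of a comparison without ZT22. In a comparison with ZT22, a value without the male library rests on the female library alone.

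Libraries of the 3 genotypes had 2848069 to 4456322 reads on genes each, and no 2 held identical values. In every wild-type and *Cry2* knockout group the female library had more reads on genes than the male one, so depth went with sex there. In *Clk* knockouts this was so at ZT10 alone. The median expressed gene deviated from its wild-type mean by -0.16 to -0.03 log2 units in *Cry2* knockout libraries, -0.33 to 0.03 in *Clk* knockout libraries and -0.04 to 0.05 in wild-type libraries, with the male ZT4 library of *Clk* knockouts lowest. All 7 brain markers and all 3 eye markers examined were present in every library, but single markers moved with the knockouts. In *Cry2* knockouts *ninaB*, an eye marker here, was at -0.62 log2 units (adjusted p = 0.00026, limma) and *Eaat2*, a glutamate transporter gene, at -0.42 (adjusted p = 0.000792), and in *Clk* knockouts *sev*, a photoreceptor gene, was at -0.34 (adjusted p = 0.0016) and *Ace*, the acetylcholinesterase gene, at -0.29 (adjusted p = 0.0185), of which *Ace* did not pass after quantile normalization. No other marker passed in these comparisons on the deposited scale. The paper reports *Ace*, *Eaat2* and the GABA receptor gene DPOGS204494, also a brain marker here, as rhythmic. Of the 3 eye markers, 1 was called rhythmic in wild-type here. Such markers can move with the clock, so they do not check the cell composition apart from it. The summed FPKM of the brain markers ranged from 457 to 539 in *Cry2* knockouts, 365 to 566 in *Clk* knockouts and 404 to 612 in wild-type, and that of the eye markers from 62.9 to 80.2, 54.9 to 73.4 and 61.9 to 85.7 in the same order of genotypes. Their part in the results below was not tested. In RNA from whole brains, fewer cells that express a gene and less of its RNA per cell cannot be told apart. The level of *Cry2* mRNA (DPOGS208079) does not check the labels, since it was 22.9 ± 0.667 FPKM in *Cry2* knockouts and 25.6 ± 5.37 FPKM in wild-type at the same times (SD, n = 8 each).

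To see how each gene ran over the day in an intact clock, the 16 wild-type libraries were examined first. *Vri* had low levels around lights on and high levels in the second part of the light phase, whereas *Cwo* stayed low until ZT7 and high through the dark phase. In the order female and male library, *Vri* FPKM in wild-type were 18.1 and 16.5 at ZT1, 25.0 and 16.7 at ZT4, 61.8 and 50.8 at ZT7, 91.9 and 95.3 at ZT10, 70.5 and 80.9 at ZT13, 41.9 and 45.9 at ZT16, 43.7 and 38.2 at ZT19, and 32.5 and 16.9 at ZT22. The highest value was at ZT10 and the lowest at ZT1 in either sex. *Cwo* FPKM, in the same order, were 6.64 and 5.41 at ZT1, 6.43 and 5.24 at ZT4, 4.90 and 4.88 at ZT7, 12.6 and 13.3 at ZT10, 13.1 and 20.9 at ZT13, 18.3 and 16.6 at ZT16, 17.1 and 16.1 at ZT19, and 25.7 and 16.6 at ZT22. All 6 libraries from ZT1 to ZT7 lay below all 10 libraries from ZT10 to ZT22, the lowest point was at ZT7 in either sex, and the highest was at ZT22 in females and at ZT13 in males. This split was chosen from the values themselves and was not counted over all genes. The female and male series ran alike, with Pearson correlations over 8 times of 0.946 for *Vri* and 0.899 for *Cwo*, given as a description.

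**Figure D1:**
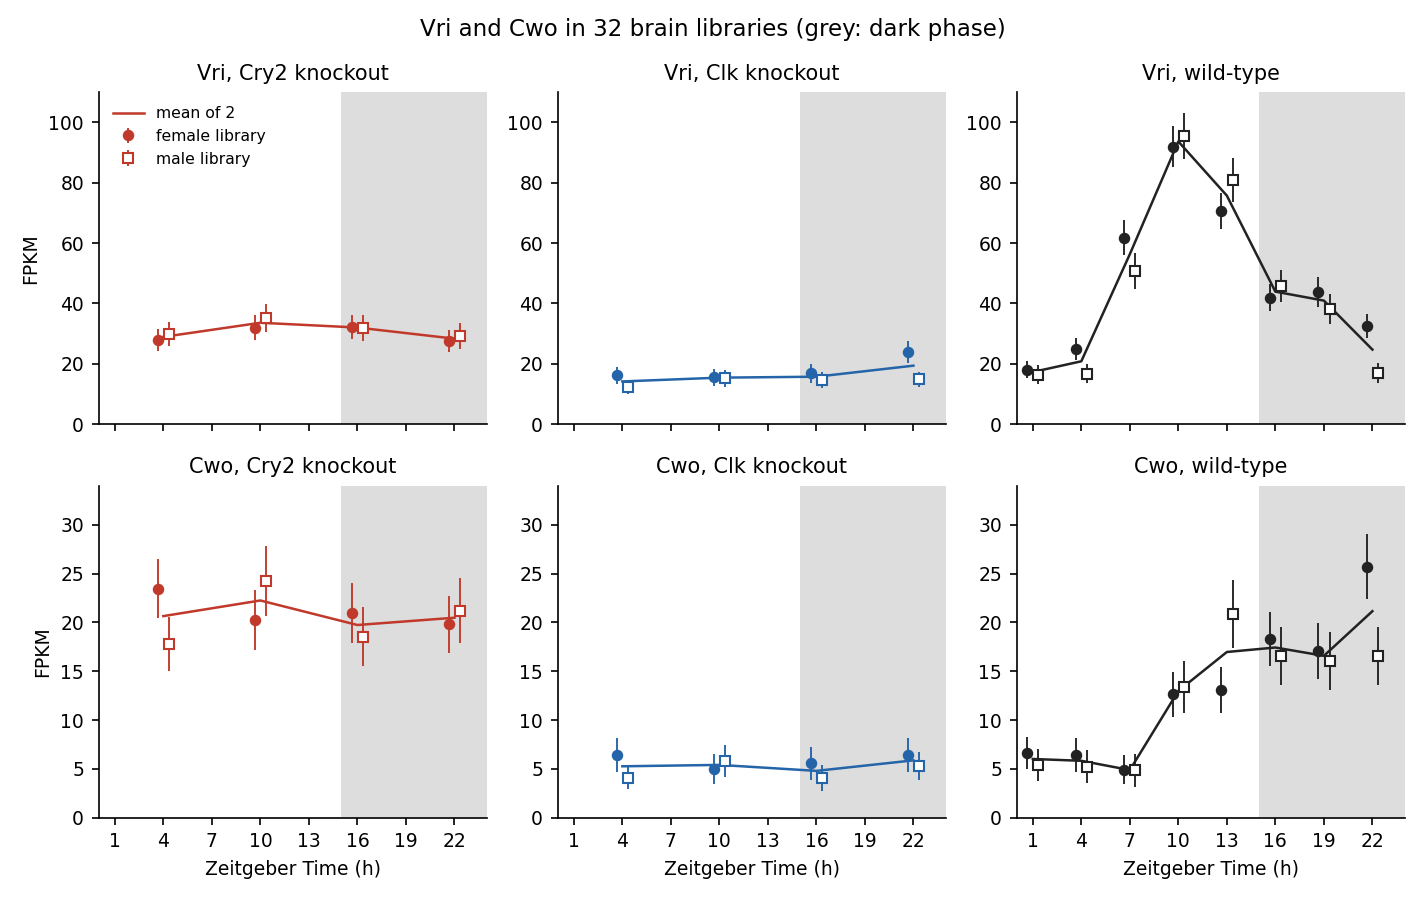
FPKM (vertical axis) of *Vri* (upper row) and *Cwo* (lower row) against Zeitgeber Time in hours in *Cry2* knockouts, *Clk* knockouts and wild-type, with filled circles for female and open squares for male libraries, bars for the 95% interval of counting error and lines for the mean of 2 libraries. In wild-type the curves climb to 93.6 FPKM of *Vri* at ZT10 and 21.1 FPKM of *Cwo* at ZT22, whereas time means in *Cry2* knockouts lie between 28.3 and 33.6 FPKM of *Vri* and 19.7 and 22.2 FPKM of *Cwo*, and in *Clk* knockouts between 14.2 and 19.4 FPKM and between 4.81 and 5.88 FPKM. Grey marks the dark phase.

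A cosine and a sine of 24 h were fitted to log2(FPKM + 1) over these libraries with limma, with Benjamini-Hochberg adjustment over all expressed genes. Calls of a rhythm needed an adjusted p up to 0.05 and a highest value at least 1.3 times the lowest, which 0.807% of the expressed genes met. In all other tests an adjusted p up to 0.05 was enough. The paper reports both genes as rhythmic from these same wild-type libraries, so their calls of a rhythm or time effect are not independent evidence. Separately, the paper reports that qRT-PCR on other wild-type brain samples bore out the rhythm and phase of both genes. Those qRT-PCR values were not examined here. The fitted peak of *Cwo* came 4.83 h after that of *Vri*. *Vri* had a fitted range from peak to trough of 2.16 ± 0.25 log2 units (SE) with its peak at ZT12.0 ± 0.44 h (adjusted p = 0.000587, limma). *Cwo* had a range of 1.79 ± 0.27 with its peak at ZT16.9 ± 0.58 h (adjusted p = 0.00831, limma). The 24-h curve took up 83.5% of the variance of *Vri* over 16 libraries and 74.3% of that of *Cwo*. A 12-h component besides it had a range of 0.74 ± 0.17 for *Vri* (unadjusted p = 0.0031, adjusted p = 0.876, limma) and 0.65 ± 0.23 for *Cwo* (unadjusted p = 0.0466, adjusted p = 0.876, limma), which was 0.43 without the female ZT22 library. It passed for 0% of the expressed genes, with 395 genes at an unadjusted p-value of 0.05 or less. As a comparison of the 8 times without an assumed shape, the limma F test called a time effect for both genes in wild-type, with time means spread over 2.37 log2 units for *Vri* (adjusted p = 1.75e-05) and 1.88 for *Cwo* (adjusted p = 4.35e-05), and for 0.49% of the expressed genes. Both genes kept this call whichever of the 32 libraries was dropped, while the number of genes called ran from 37 to 2030.

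The change over each 3-h step shows where these curves were steepest. *Vri* mRNA rose 2.70-fold between ZT4 and ZT7, to 56.3 FPKM at ZT7 against 20.9 FPKM at ZT4, a step of 1.41 ± 0.24 log2 units (SE, adjusted p = 0.0346, limma). This call held in 7 of 32 fits that left out a library, with steps of 1.13 to 1.68. *Cwo* mRNA fell 3.51-fold across lights on, to 6.02 FPKM at ZT1 against 21.1 FPKM at ZT22, a step of -1.63 ± 0.22 (adjusted p = 0.00737, limma). The step was -1.33 without the female wild-type ZT22 library (adjusted p = 0.270) and -1.50 without the male wild-type ZT1 library (adjusted p = 0.0846), the 2 libraries without which the call was lost. The step of *Cwo* between ZT7 and ZT10 was 2.66-fold, at 1.25 ± 0.22 log2 units, with an adjusted p of 0.0619 (limma) just over the threshold, and 0.0359 without the female or 0.0357 without the male wild-type ZT22 library.

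Between ZT1 and ZT7, *Cwo* stayed within 4.88 to 6.64 FPKM, while *Vri* over the same times spanned 16.5 to 61.8 FPKM. The 6 other *Cwo* steps lay between -0.21 and 0.33 log2 units. *Vri* moved by 0.73 from ZT7 to ZT10, by -0.77 from ZT13 to ZT16, a step that spans lights off, and by -0.77 from ZT19 to ZT22, none of which passed (adjusted p of 0.143 to 1, limma). The last was -1.22 without the female and -0.32 without the male ZT22 library, and the *Cwo* step of 0.30 there was 0.002 and 0.60. The *Vri* step across lights on was -0.42 (adjusted p = 0.436, limma). Here the 2 libraries of ZT22 decide, since it was -0.87 without the male ZT22 library and 0.03 without the female one. Calls were rare in every step, at 0.0096% of the expressed genes for ZT1 to ZT4, ZT7 to ZT10, ZT13 to ZT16 and ZT22 to ZT1, 0.0192% for ZT10 to ZT13 and ZT16 to ZT19, and 0.0288% for ZT4 to ZT7 and ZT19 to ZT22. *Vri* was among 3 genes called between ZT4 and ZT7. *Cwo* was the single gene called in the step across lights on, but with the female ZT22 library alone 3321 genes were called there, *Cwo* among them (-1.93, adjusted p = 5.06e-05).

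**Figure D2:**
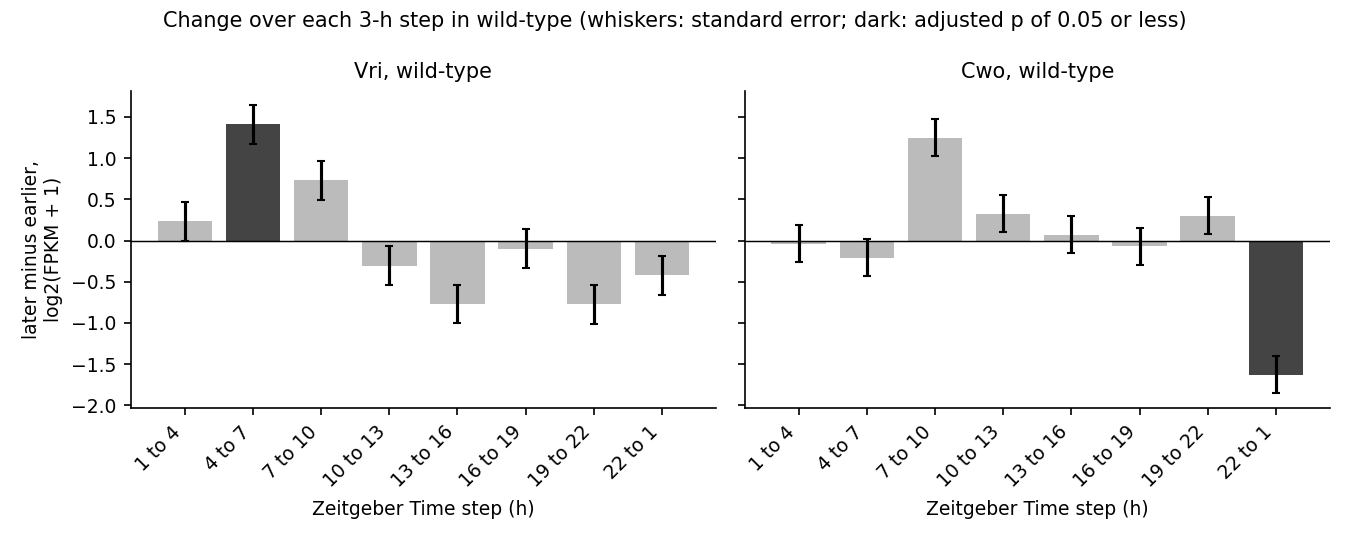
Change in log2(FPKM + 1), later minus earlier time, over each 3-h step of the wild-type series (horizontal axis, Zeitgeber Time in hours) for *Vri* and *Cwo*, with whiskers for the standard error and dark bars for steps with an adjusted p-value of 0.05 or less. The dark bars are the step of 1.41 for *Vri* between ZT4 and ZT7 and that of -1.63 for *Cwo* between ZT22 and ZT1.

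Next, the *Clk* knockouts were examined, which lack the activator. Both genes were low at every time point, at about the lowest levels of the wild-type day. In the order female and male library, *Vri* FPKM in *Clk* knockouts were 16.2 and 12.2 at ZT4, 15.6 and 15.3 at ZT10, 16.8 and 14.7 at ZT16, and 23.98 and 14.8 at ZT22. The female ZT22 library stood above the other 7, which ended at 16.8 FPKM. *Cwo* FPKM were 6.43 and 4.11 at ZT4, 5.01 and 5.82 at ZT10, 5.58 and 4.04 at ZT16, and 6.46 and 5.31 at ZT22. These 8 values overlapped the wild-type values of ZT1, ZT4 and ZT7 and lay below all wild-type values from ZT10 on, a position not counted over all genes.

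Averaged over the 4 shared times, *Vri* was 2.83-fold lower in *Clk* knockouts, at 16.2 ± 3.43 FPKM against 45.8 ± 31.4 FPKM in wild-type (SD, n = 8 each). *Cwo* was 2.68-fold lower, at 5.34 ± 0.929 FPKM in *Clk* knockouts and 14.3 ± 6.59 FPKM in wild-type (SD, n = 8 each). The wild-type SD holds the daily course, so levels were compared as the mean of the 4 differences at a given time, with an error from the spread between the 2 libraries of a group over all 32 libraries. On the log2 scale, *Vri* fell by 1.19 ± 0.12 (SE, adjusted p = 4.42e-06, limma) and *Cwo* by 1.15 ± 0.11 (SE, adjusted p = 3.92e-06, limma), beside calls for 9.92% of the expressed genes. Of 8 pairs of a knockout and a wild-type library of the same time and sex, *Vri* was higher in the *Clk* knockout in 0 and *Cwo* in 1. Such pairs were not counted over all genes and are given as a description.

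The comparison was then made at each time. For *Vri* the deficit was greatest at ZT10, where *Clk* knockouts had 15.4 ± 0.243 FPKM and wild-type 93.6 ± 2.39 FPKM (SD, n = 2 each), a difference of -2.52 ± 0.24 log2 units (SE, adjusted p = 6.89e-06, limma). At ZT16 the difference was -1.42 ± 0.24 (adjusted p = 0.007), and at ZT4 and ZT22 it did not pass, at -0.51 (adjusted p = 0.248) and -0.30 (adjusted p = 0.445). The value at ZT4 ran from -0.79 without the male to -0.24 without the female wild-type library of that time. The ZT16 call was lost without the male wild-type library (-1.36, adjusted p = 0.114), the male *Clk* knockout library (-1.33, adjusted p = 0.0987) or the female *Clk* knockout library (-1.52, adjusted p = 0.0565) of that time. At ZT22 the difference was -0.75 without the male wild-type library (adjusted p = 0.0155), 0.15 without the female wild-type library and 0.03 without the male *Clk* knockout library. A test of whether the 4 differences are equal passed for *Vri*, whose differences spread over 2.22 log2 units (adjusted p = 0.0128, limma, called for 0.125% of the expressed genes), and the call was lost without the female wild-type (adjusted p = 0.0590), the male wild-type (adjusted p = 0.0682) or the male *Clk* knockout (adjusted p = 0.0511) library of ZT10, at spreads of 2.25, 2.20 and 2.21.

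For *Cwo* the deficit was greatest in the dark phase. At ZT16, *Clk* knockouts had 4.81 ± 1.09 FPKM and wild-type 17.4 ± 1.23 FPKM, a difference of -1.68 ± 0.22 log2 units (adjusted p = 0.000737, limma). At ZT22 the values were 5.88 ± 0.812 and 21.1 ± 6.44 FPKM in the same order, and the difference was -1.66 ± 0.22 (adjusted p = 0.00115, limma), or -1.36 without the female wild-type library (adjusted p = 0.0386) and -1.96 without the male one (adjusted p = 2.43e-05). At ZT10 it was -1.13 ± 0.22 (adjusted p = 0.0402, limma), a call that held in 16 of 32 fits without a library, with differences of -1.22 to -1.04. At ZT4, where wild-type is low, the difference was -0.14 (adjusted p = 0.750), and it turned to 0.13 without the male *Clk* knockout ZT4 library and to 0.02 after quantile normalization. The median gene of that comparison stood at -0.20 log2 units. The 4 *Cwo* differences spread over 1.53 log2 units, and the test of their equality did not pass (adjusted p = 0.156, limma), although it did without the male wild-type ZT22 library (1.82, adjusted p = 0.00217). The shares of expressed genes called at ZT4, ZT10, ZT16 and ZT22 were 0.653%, 0.231%, 0.259% and 1.71%. With a library left out, the counts ran from 7 to 1061 at ZT4, highest without the female *Clk* knockout ZT4 library, and from 15 to 3939 at ZT22.

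The *Cry2* knockouts, which lack the repressor, were examined in the same way. *Cwo* was high at every time point, near the top of its wild-type range, whereas *Vri* was held at an intermediate level. The paper words this otherwise, with *Vri* constitutively low and *Tim* at mid-levels in these knockouts. Intermediate here means between the lowest and highest wild-type values, as given below. In the order female and male library, *Vri* FPKM in *Cry2* knockouts were 27.9 and 29.9 at ZT4, 32.01 and 35.2 at ZT10, 32.3 and 31.8 at ZT16, and 27.4 and 29.3 at ZT22. All 8 lay within a range of 1.28-fold, above every wild-type value of ZT1 and ZT4 and below every wild-type value of ZT7 to ZT19. *Cwo* FPKM were 23.5 and 17.8 at ZT4, 20.2 and 24.3 at ZT10, 21.0 and 18.5 at ZT16, and 19.8 and 21.2 at ZT22. All 8 lay within a range of 1.36-fold, and above every wild-type value of ZT1 to ZT10. For either gene, such positions were not counted over all genes and are given as a description.

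Averaged over the 4 shared times, *Cwo* was 1.45-fold higher in *Cry2* knockouts, at 20.8 ± 2.23 FPKM against 14.3 ± 6.59 FPKM in wild-type (SD, n = 8 each). The mean log2 difference was 0.63 ± 0.11 (SE, adjusted p = 0.00103, limma), beside calls for 12.9% of the expressed genes. As a description not counted over all genes, *Cwo* was higher in the knockout in 7 of 8 pairs of the same time and sex. An additive fit of genotype and time over these 16 libraries, whose error holds the daily course of wild-type, gave the same 0.63 with an adjusted p of 0.0637, over the threshold. *Vri* had 30.7 ± 2.58 FPKM in *Cry2* knockouts and 45.8 ± 31.4 FPKM in wild-type, and its mean log2 difference of -0.29 ± 0.12 did not pass (adjusted p = 0.110, limma). It passed without the male wild-type ZT22 library, at -0.40 (adjusted p = 0.00558), and was otherwise not called in the 32 fits that left out a library. The comparisons of either knockout with wild-type use the same wild-type libraries.

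At single times, the difference of *Vri* passed at ZT10 alone. There it was 2.79-fold lower, with 33.6 ± 2.26 FPKM in *Cry2* knockouts and 93.6 ± 2.39 FPKM in wild-type (SD, n = 2 each), a difference of -1.45 ± 0.24 log2 units (adjusted p = 0.00475, limma). That call was lost without the female (-1.48, adjusted p = 0.0673) or male (-1.43, adjusted p = 0.0713) wild-type library or the female *Cry2* knockout library (-1.39, adjusted p = 0.0801) of ZT10. At the other times the differences were 0.48 ± 0.24 at ZT4 (adjusted p = 0.678, with 0.75 without the female and 0.20 without the male wild-type library), -0.44 ± 0.24 at ZT16 (adjusted p = 0.546) and 0.26 ± 0.24 at ZT22 (adjusted p = 0.486), the last at 0.71 without the female and -0.19 without the male wild-type library of that time. The 2 libraries of either genotype did not overlap at ZT4, where *Cry2* knockouts were higher, nor at ZT10 and ZT16, where they were lower. Such separation was not counted over all genes and is given as a description. The spread of the 4 differences was 1.93 log2 units, with an adjusted p of 0.0506 (limma, called for 0.0768% of the expressed genes) just over the threshold. It was 0.0282 with a replicate block, 0.0022 without the female wild-type ZT22 library, at a spread of 2.16, and 0.00106 without the male one.

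For *Cwo* the excess in *Cry2* knockouts was found where wild-type is low. At ZT4 it was 3.54-fold higher, with 20.6 ± 3.99 FPKM in *Cry2* knockouts and 5.84 ± 0.842 FPKM in wild-type (SD, n = 2 each), a difference of 1.66 ± 0.22 log2 units (adjusted p = 0.00119, limma). The call was lost without the female *Cry2* knockout (1.47, adjusted p = 0.0536) or male wild-type (1.53, adjusted p = 0.0680) library of ZT4. At ZT10 the difference was 0.73 ± 0.22 (unadjusted p = 0.00429, adjusted p = 0.219), at ZT16 0.17 ± 0.22 (adjusted p = 0.865) and at ZT22 -0.01 ± 0.22 (adjusted p = 0.981). The last turned to 0.29 without the female wild-type ZT22 library, was -0.31 without the male one, and to 0.05 to 0.08 when libraries were rescaled. The spread of the 4 differences was 1.67 log2 units (adjusted p = 0.134, limma), and passed without the male wild-type ZT22 library (1.97, adjusted p = 0.00202). The shares of expressed genes called at ZT4, ZT10, ZT16 and ZT22 were 0.202%, 0.471%, 0.624% and 4.13%.

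**Figure D3:**
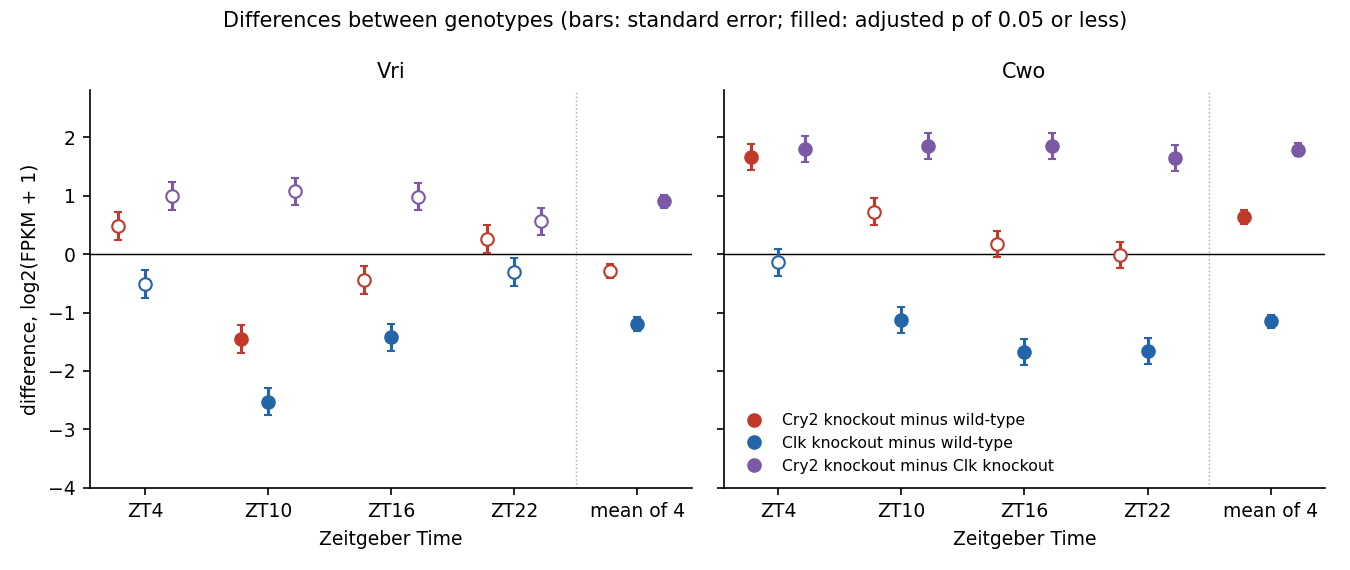
Difference in log2(FPKM + 1) between genotypes (vertical axis) for *Vri* and *Cwo* at each shared Zeitgeber Time and averaged over the 4 times, with red for *Cry2* knockouts minus wild-type, blue for *Clk* knockouts minus wild-type, purple for *Cry2* minus *Clk* knockouts, bars for the standard error and filled points for an adjusted p-value of 0.05 or less. *Clk* knockouts minus wild-type average -1.19 for *Vri* and -1.15 for *Cwo*, while *Cry2* knockouts minus wild-type average -0.29 for *Vri* and 0.63 for *Cwo*.

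The *Cry2* knockouts were then set directly against the *Clk* knockouts, a comparison without wild-type libraries. Both genes were higher in *Cry2* than in *Clk* knockouts in 8 of 8 pairs of the same time and sex, and the libraries did not overlap at any of the 4 times. These counts were not made over all genes and are given as a description. *Cwo* was 3.89-fold higher, with 20.8 ± 2.23 FPKM in *Cry2* knockouts and 5.34 ± 0.929 FPKM in *Clk* knockouts (SD, n = 8 each), a mean log2 difference of 1.79 ± 0.11 (SE, adjusted p = 1.17e-08, limma). *Vri* was 1.90-fold higher, with 30.7 ± 2.58 FPKM in *Cry2* knockouts and 16.2 ± 3.43 FPKM in *Clk* knockouts, a difference of 0.90 ± 0.12 (adjusted p = 0.000106, limma). Calls in this comparison covered 4.02% of the expressed genes.

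At single times the *Cwo* difference was called at ZT4, ZT10, ZT16 and ZT22, at 1.799, 1.85, 1.85 and 1.65 log2 units (adjusted p of 0.000381 to 0.00145, limma), and in all 32 fits without a library. The *Vri* difference was 0.99, 1.07, 0.98 and 0.56 at the same times and did not pass at any of them (adjusted p of 0.0741 to 0.542, limma), although with either wild-type ZT22 library left out it passed at ZT4, ZT10 and ZT16 (adjusted p of 0.0134 to 0.0172). Its value at ZT22 was 0.89 without the female and 0.23 without the male *Clk* knockout library of that time. The expressed genes called were 0.423%, 0.231%, 0.327% and 0.211% at these times. A change of the difference over time did not pass, with spreads of 0.51 log2 units for *Vri* (adjusted p = 0.934) and 0.21 for *Cwo* (adjusted p = 0.985) in a test that called 0% of the expressed genes and put 480 at an unadjusted p-value of 0.05 or less. With a library left out these spreads ran from 0.18 to 0.84 and from 0.087 to 0.42.

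Neither gene had a time effect that passed in a knockout. In *Cry2* knockouts the 4 time means spread over 0.24 log2 units for *Vri* (unadjusted p = 0.712, limma) and 0.16 for *Cwo* (unadjusted p = 0.906). In *Clk* knockouts the spreads were 0.40 for *Vri* (unadjusted p = 0.408) and 0.25 for *Cwo* (unadjusted p = 0.724). This limma F test called 0% of the expressed genes in either knockout, with 254 genes in *Cry2* knockouts and 1463 in *Clk* knockouts at an unadjusted p-value of 0.05 or less. With a library left out, the spreads in *Clk* knockouts ran from 0.15 to 0.73 for *Vri* and 0.15 to 0.45 for *Cwo*, and in *Cry2* knockouts from 0.17 to 0.30 and 0.053 to 0.30, without a call for either gene, although 387 genes were called in *Clk* knockouts without their female ZT4 library. With 4 times and 2 libraries each, a small rhythm was not detectable.

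Fitted 24-h ranges in *Cry2* knockouts were 0.28 log2 units for *Vri* and 0.12 for *Cwo*, and in *Clk* knockouts 0.31 and 0.14, against 2.16 and 1.79 in wild-type. The interaction of genotype and rhythm passed for *Vri* in *Clk* knockouts (adjusted p = 0.0284, limma), a call that held in 18 of 32 fits without a library (adjusted p of 0.00597 to 0.147) and was lost without the male wild-type ZT22 library (adjusted p = 0.0671) and with the 4 shared times alone (adjusted p = 0.904). It did not pass for *Vri* in *Cry2* knockouts (adjusted p = 0.135), nor for *Cwo* in *Cry2* knockouts (adjusted p = 0.259) or *Clk* knockouts (adjusted p = 0.229), although each of these 3 passed without the female wild-type ZT22 library (adjusted p of 0.0135, 0.0363 and 0.0343). The shares of expressed genes called were 0.144% in *Cry2* knockouts and 0.202% in *Clk* knockouts. The smaller ranges of *Cwo* in both knockouts and of *Vri* in *Cry2* knockouts are therefore given as values, without a call.

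The levels of all 16 groups can be put in order. For *Vri* the first 5 groups were wild-type at ZT10, ZT13, ZT7, ZT16 and ZT19 (93.6 to 40.9 FPKM), followed by all 4 *Cry2* knockout groups (33.6 to 28.3 FPKM), then wild-type at ZT22 and ZT4, and the *Clk* knockout groups and wild-type at ZT1 (19.4 to 14.2 FPKM). For *Cwo* the *Cry2* knockout groups took 4 of the first 5 places (22.2 to 19.7 FPKM) with wild-type at ZT22 among them, wild-type at ZT16, ZT13, ZT19 and ZT10 followed (17.4 to 12.99 FPKM), and wild-type at ZT1, ZT4 and ZT7 was interspersed with the *Clk* knockout groups (6.02 to 4.81 FPKM). Neighbours in this order mostly shared values, since the libraries of adjacent groups did not overlap in 5 of 15 cases for *Vri* and 3 of 15 for *Cwo*. Gaps of this kind were not counted over all genes. The 3 gaps of *Cwo* lay below the lowest *Cry2* knockout group, below wild-type ZT19 and below wild-type ZT10.

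FPKM are per length of transcript, so that both genes can be set against each other within a library. The ratio of *Vri* to *Cwo* FPKM was 1.19 to 1.72 in *Cry2* knockouts (median 1.497), 2.51 to 3.71 in *Clk* knockouts (median 2.99) and 1.02 to 12.6 in wild-type (median 3.12). The ranges of the 2 knockouts did not overlap. In wild-type the ratio was highest at ZT7, at 12.6 in the female and 10.4 in the male library, and lowest at ZT22, at 1.26 and 1.02. Since the contrast between both genes is named in how they were chosen, these ratios are a description and were not tested.

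**Figure D4:**
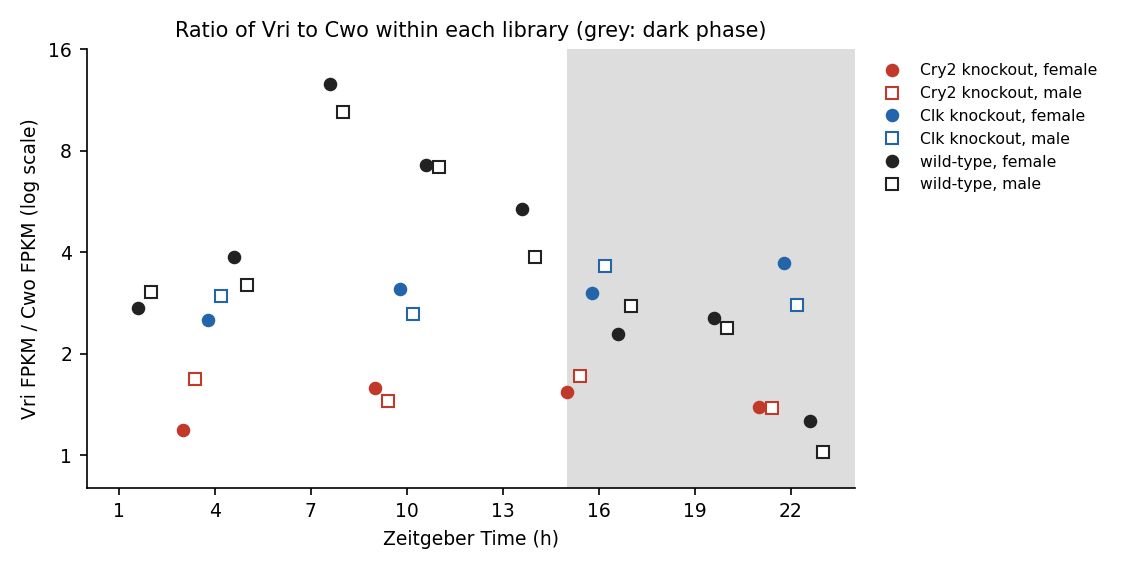
Ratio of *Vri* to *Cwo* FPKM within each library (vertical log axis) against Zeitgeber Time in hours for *Cry2* knockouts, *Clk* knockouts and wild-type, with filled circles for female and open squares for male libraries, moved sideways for legibility and grey for the dark phase. Wild-type ratios run between 12.6 at ZT7 and 1.02 at ZT22, while *Cry2* knockouts stay between 1.19 and 1.72 and *Clk* knockouts between 2.51 and 3.71.

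Female and male libraries were compared with a difference per genotype. For *Vri* the female library was higher in 1 of 4 *Cry2* knockout groups, 4 of 4 *Clk* knockout groups and 5 of 8 wild-type groups, and for *Cwo* in 2 of 4, 3 of 4 and 6 of 8. Groups were not counted in this way over all genes. Female minus male differences of *Vri* were -0.07 ± 0.14 log2 units in *Cry2* knockouts, 0.31 ± 0.14 in *Clk* knockouts and 0.21 ± 0.10 in wild-type (SE, adjusted p of 1, 0.299 and 0.307, limma). Those of *Cwo* were 0.05 ± 0.16, 0.25 ± 0.16 and 0.08 ± 0.11 in the same genotypes (adjusted p of 1, 0.424 and 0.735, limma). Over all expressed genes the median difference was -0.0087 in *Cry2* knockouts, 0.131 in *Clk* knockouts and -0.015 in wild-type. Female libraries of *Clk* knockouts were thus shifted up over genes as a whole. With either wild-type ZT22 library left out, the wild-type differences were 0.11 for *Vri* and 0.0027 for *Cwo*. In *Clk* knockouts they ran from 0.20 to 0.41 for *Vri* and 0.15 to 0.39 for *Cwo* with a library left out. None passed, in a test that called 0.115%, 0.499% and 2.45% of the expressed genes.

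The comparison of the sex difference between genotypes did not pass for either gene. For *Cry2* knockouts minus wild-type it was -0.28 ± 0.18 for *Vri* (adjusted p = 0.857, limma, or -0.18 with either wild-type ZT22 library left out) and -0.03 ± 0.19 for *Cwo* (adjusted p = 0.985), with 0% of the expressed genes called and 566 at an unadjusted p-value of 0.05 or less. For *Clk* knockouts minus wild-type it was 0.10 ± 0.18 for *Vri* (adjusted p = 0.797) and 0.17 ± 0.19 for *Cwo* (adjusted p = 0.682), with 0.0096% called. The median over all expressed genes was 0.0057 for *Cry2* knockouts minus wild-type and 0.145 for *Clk* knockouts minus wild-type. At ZT22 in wild-type the female library was the higher for both genes, and the 95% intervals of the 2 libraries did not overlap for either. The same held for *Vri* at ZT4 in wild-type and ZT22 in *Clk* knockouts, and for *Cwo* at ZT13 in wild-type, where the male library was the higher.

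Other clock genes gave a frame for these patterns. They come from the study's list of genes rhythmic in these wild-type libraries, so their rhythm is not independent evidence. *Per* (DPOGS203908), whose fly protein represses CLK together with that of *Tim*, had 43.4 ± 2.33 FPKM in *Cry2* knockouts, 4.87 ± 0.719 FPKM in *Clk* knockouts and 26.8 ± 12.9 FPKM in wild-type (SD, n = 8 each). It rose by 0.82 log2 units in *Cry2* knockouts (adjusted p = 8.1e-06, limma) and fell by 2.11 in *Clk* knockouts (adjusted p = 1.15e-11, limma), the directions of *Cwo*. *Tim* (DPOGS214179) had 64.3 ± 4.07, 27.02 ± 5.20 and 73.9 ± 26.3 FPKM in the same order. It fell by 1.35 in *Clk* knockouts (adjusted p = 4.46e-09), and its -0.10 in *Cry2* knockouts did not pass (adjusted p = 0.417), as for *Vri*. *Cry2* passed in neither knockout. Of these 3 genes, 1 rose and 0 fell in *Cry2* knockouts and 0 rose and 2 fell in *Clk* knockouts. Over all expressed genes, 1.78% rose and 11.1% fell in *Cry2* knockouts, and 1.86% rose and 8.06% fell in *Clk* knockouts.

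Relatives of *Cwo* in the Hairy/E(spl) family from the study's list were examined next, and neither rose. Both *h* (*hairy*, DPOGS200811), a pair-rule repressor required for segmentation in *Drosophila*, and *E(spl)mbeta-HLH* (DPOGS200691), a Notch target there, fell in *Clk* knockouts, by 0.81 and 1.09 log2 units (adjusted p = 0.00167 and 1.61e-05, limma). In *Cry2* knockouts *h* fell by 0.81 (adjusted p = 0.000974) and *E(spl)mbeta-HLH* was at -0.35 (adjusted p = 0.0588). Levels of *h* were near the 3 FPKM asked of expressed genes. They were 2.84 ± 0.676 FPKM in *Cry2* knockouts, 2.86 ± 0.731 FPKM in *Clk* knockouts and 5.94 ± 2.25 FPKM in wild-type (SD, n = 8 each). The level of *E(spl)mbeta-HLH* was 15.1 ± 2.46 FPKM in *Cry2* knockouts, 8.74 ± 2.39 FPKM in *Clk* knockouts and 23.5 ± 17.4 FPKM in wild-type, and its fitted wild-type peak was at ZT11.4.

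The study also listed 23 other gene models of transcription factors as rhythmic in these libraries. They are not all separate factors, since *crol*, *gem* and *mamo* each had more than 1 model. Of the 23, 1 rose and 3 fell in *Cry2* knockouts, with a median difference of -0.11 log2 units against -0.08 over all expressed genes. In *Clk* knockouts 0 rose and 3 fell, with medians of -0.13 and -0.06. After either rescaling, 1 gene of the list fell in each knockout, *cbt* in *Cry2* knockouts and *cas* in *Clk* knockouts, and the 1 that rose in *Cry2* knockouts was *Hsf*, as on the deposited scale. The surplus of falls over all genes rests on the scale, as lower genes made up 86.2% and 81.2% of the calls on the deposited scale but 49.7% and 56.3% after quantile normalization and 52.3% and 52.8% after median-of-ratios scaling. Only *cbt* (*cabut*, DPOGS201573), a zinc finger factor, fell in both, by 0.50 (adjusted p = 0.000781) and 0.31 (adjusted p = 0.0294), and its change in *Clk* knockouts did not pass after either rescaling.

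The genes whose log2 profile over all 32 libraries was most like that of a member were ranked by Pearson correlation, as a description over libraries that share genotypes and times. For *Vri* they were *Tret1-2* (0.902), a trehalose transporter gene, *E(spl)mbeta-HLH* (0.900), *Sik3* (0.840), a kinase gene, *CG5001* (0.834) and DPOGS210704 (0.807). For *Cwo* they were *Per* (0.856), *CG31324* (0.850), *nrv1* (0.824), a gene for a subunit of the sodium pump, *Tim* (0.794) and *Lpin* (0.791), a gene of lipid synthesis. No gene was on both lists, and the correlation between *Vri* and *Cwo* was 0.492. Among the profiles like that of *Vri*, *Tret1-2* peaked at ZT12.8 in wild-type, with 2.28 to 13.2 FPKM over all libraries.

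The nearest genes on either scaffold were examined for a shared course. The 4 around *Vri* had correlations of 0.10 to 0.29 with it over 32 libraries, and DPOGS208601 was not expressed. Of the 4 around *Cwo*, 3 had correlations of -0.16 to 0.25. The other, DPOGS209926, is annotated from 114488 to 114993, 538 bases from *Cwo*, and had a correlation of 0.595. It had 67.6 to 180 FPKM in *Cry2* knockouts, 0 to 43.3 FPKM in *Clk* knockouts and 14.7 to 157 FPKM in wild-type, from no more than 11 reads in any library. It was 2.96 ± 0.55 log2 units higher in *Cry2* than in *Clk* knockouts (adjusted p = 0.00319, limma), with 67 reads in 8 *Cry2* knockout libraries and 12 in 8 *Clk* knockout libraries, whereas its differences from wild-type did not pass (adjusted p = 0.114 and 0.0640). The orientation of these gene models was not used here, and whether the reads belong to the *Cwo* transcript was not tested.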

How the data were processed

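PolyA+ RNA of pooled brains was sequenced by the authors as 50-base single-end reads (CASAVA 1.8.2, per the labels), mapped with TopHat2 to monarch assembly v3 with 1 location kept per read, and quantified with Cufflinks. The deposited values are FPKM per gene and library with a 95% interval, and no counts were given. The reads behind a value were computed from the upper bound of this interval.

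From the deposited FPKM, log2(FPKM + 1) was computed for 10412 expressed genes without further scaling. Adding 1 understates the change of low genes. The values were fitted with limma 3.58.1 (intensity trend) in R 4.3.3 with a mean for each of 16 groups, and p-values were adjusted by Benjamini-Hochberg over all expressed genes. The paper's rhythm methods (RAIN, MetaCycle, DODR) were not run, and harmonic regression was used in their place. Groups, sex and replicate numbers came from the labels. The scripts were tested on simulated data with known changes.

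Alternatives were a pseudocount of 0.1, no filter on low values, a mean of at least 3 FPKM, quantile normalization, median-of-ratios scaling, a replicate block, an additive fit of genotype and time, the 4 shared times alone, the libraries of a genotype alone, and each library left out in turn. Named genes were the 2 members in every library, the other clock genes and Hairy/E(spl) genes with an identifier in the study, members of its list of rhythmic transcription factors that passed in both knockouts, the 2 nearest genes on either side and the 5 most alike in profile. Members and lists were chosen with earlier results of these data known. *Hsf*, *cas* and the 4 markers given with values were named after their values were seen. *Clk*, *Bmal1*, *Cry1* and *Pdp1* were not analysed here, as no identifier pairs them with the values. Python 3.11.15 (pandas 2.3.3, matplotlib 3.10.9) was used for summaries and figures.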

Additional observations from a re-analysis of the deposited data

Results flagged for a closer look

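In *Clk* knockouts, *Vri* had 23.98 FPKM in the female ZT22 library, against 16.8 FPKM in the next of the 8 libraries. The gap is 0.607 of the whole range, above the critical value of 0.526 of Dixon's test for 8 values, which chance passes in about 1 in 20 groups. The 8 libraries come from 4 times, and the other 7 lie between 12.2 and 16.8 FPKM.

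The daily course of *Vri* differed between *Clk* knockouts and wild-type by a test of the difference itself. The 4 differences from wild-type spread over 2.22 log2 units (adjusted p = 0.0128, limma), and the fitted 24-h range differed by -1.85 log2 units (adjusted p = 0.0284, limma). Neither call is firm. With a library left out the first held in 29 of 32 fits, being lost without any of 3 ZT10 libraries, and the second in 18 of 32, and the second was lost with the 4 shared times alone (adjusted p = 0.904).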

How the results depend on the processing

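Of 462 values of member results under other settings, 443 kept their direction and side of the threshold, as did 2316 of 2432 values with 1 library left out. The lone library left in a group is then assumed to vary like the other groups. The mean differences of *Cwo* in every comparison, those of *Vri* in *Clk* knockouts minus wild-type and *Cry2* minus *Clk* knockouts, and both wild-type rhythms were called in all 32 fits without a library. Replicate numbers did not pair libraries (120 pairs, mean correlation 0.0347, 14 over 0.1), and all libraries of a number share a sex. Values of *Cwo* rest on fewer reads and have wider intervals of counting error. Its standard errors were not larger in the genotype comparisons (0.112 against 0.118 for *Vri* in the mean differences), but were larger in the rhythm and sex fits.

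Calls were lost for the *Cwo* mean in *Cry2* knockouts minus wild-type in the additive fit (0.63, adjusted p = 0.0637), for *Cwo* at ZT10 in *Clk* knockouts minus wild-type (-1.13, adjusted p = 0.0508) and the *Vri* step between ZT4 and ZT7 (1.41, adjusted p = 0.0593) without a filter, and for the *Vri* rhythm in *Clk* knockouts with the shared times alone (-1.91, adjusted p = 0.904). Calls were gained for *Vri* in *Cry2* knockouts over time with quantile normalization (1.95, adjusted p = 0.0389), median-of-ratios scaling (1.95, adjusted p = 0.0486) and the replicate block (1.93, adjusted p = 0.0282). They were gained for *Vri* in *Cry2* minus *Clk* knockouts at ZT4 with the block (0.99, adjusted p = 0.0452), at ZT10 with quantile normalization (1.09, adjusted p = 0.0468) and the block (1.07, adjusted p = 0.0363), and at ZT16 with quantile normalization (1.13, adjusted p = 0.0369) and median-of-ratios scaling (1.11, adjusted p = 0.0483), and for the *Cwo* step between ZT7 and ZT10 with quantile normalization (1.21, adjusted p = 0.0497). The block changed no other call. Signs turned under quantile normalization and median-of-ratios scaling for *Cwo* at ZT22 in *Cry2* knockouts minus wild-type (0.075 and 0.053), *Cwo* at ZT4 in *Clk* knockouts minus wild-type (0.018 and 0.045) and the *Vri* sex difference of *Clk* knockouts minus wild-type (-0.034 and -0.040). The cause was not tested.

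With each library left out in turn, *Cry2* knockouts minus wild-type ranged from -0.40 to -0.18 for the mean of *Vri*, from -1.52 to -1.39 at ZT10 and -0.19 to 0.71 at ZT22 for *Vri*, and from 1.47 to 1.85 at ZT4 and -0.31 to 0.29 at ZT22 for *Cwo*. Its spread over the 4 times ranged from 1.71 to 2.21 for *Vri* and 1.48 to 1.97 for *Cwo*. *Clk* knockouts minus wild-type ranged from -1.52 to -1.33 at ZT16 and -0.75 to 0.15 at ZT22 for *Vri*, and from -0.41 to 0.13 at ZT4 and -1.22 to -1.04 at ZT10 for *Cwo*, with spreads of 2.01 to 2.67 for *Vri* and 1.26 to 1.82 for *Cwo*. *Cry2* minus *Clk* knockouts ranged for *Vri* from 0.80 to 1.18 at ZT4, 1.006 to 1.14 at ZT10 and 0.89 to 1.08 at ZT16. Steps of *Vri* ranged from -0.043 to 0.51 (ZT1 to ZT4), 1.13 to 1.68 (ZT4 to ZT7) and -0.87 to 0.027 (ZT22 to ZT1), and those of *Cwo* from -0.17 to 0.088 (ZT1 to ZT4), 1.21 to 1.28 (ZT7 to ZT10), -0.25 to 0.39 (ZT13 to ZT16), -0.14 to 0.00084 (ZT16 to ZT19) and -1.93 to -1.33 (ZT22 to ZT1). The difference in 24-h range ran from -2.06 to -1.79 (*Vri*) and -1.77 to -1.53 (*Cwo*) in *Cry2* knockouts, and from -2.03 to -1.68 (*Vri*) and -1.75 to -1.40 (*Cwo*) in *Clk* knockouts. Sex differences ranged from -0.058 to 0.15 for *Cwo* in *Cry2* knockouts, from -0.14 to 0.075 for *Cwo* in *Cry2* knockouts minus wild-type, and from -0.010 to 0.20 for *Vri* in *Clk* knockouts minus wild-type.

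Of 231 counts of genes called under other settings, 48 moved by over 1.5 times. *Clk* knockouts minus wild-type gave 1033 genes, or 360 in the additive fit, and at ZT4 68, or 14 with quantile normalization and 12 with median-of-ratios scaling. With the block that count was 150. At ZT16 it gave 27, or 46 with quantile normalization, at ZT22 178, or 407 with median-of-ratios scaling, and for the change over time 13, or 8 with quantile normalization. At ZT22 *Cry2* knockouts minus wild-type gave 430 genes, or 762 with the block and 270 without a filter. *Cry2* minus *Clk* knockouts gave 44 genes at ZT4, or 29 (quantile) and 28 (median-of-ratios), 24 at ZT10, or 38 (quantile and block) and 42 (no filter), 34 at ZT16, or 53 (no filter), and 22 at ZT22, or 38 (no filter) and 40 (block). The sex difference in *Cry2*, *Clk* knockouts and wild-type gave 12, 52 and 255 genes, or 0, 0 and 119 with the libraries of a genotype alone, and after rescaling 19 to 20 in *Cry2* and 31 to 32 in *Clk* knockouts. Counts of 0 for a time effect were 2 in *Cry2* knockouts and 11 in *Clk* knockouts without a filter. Counts for the wild-type steps stayed between 0 and 13 under settings that kept all libraries, but were 3868 for ZT19 to ZT22 and 3321 for ZT22 to ZT1 without the male wild-type ZT22 library. The 4 shared times alone gave 3 genes in place of 15 for the rhythm in *Cry2* knockouts and 1 in place of 21 in *Clk* knockouts. Without a library, the counts ranged from 893 to 3390 for the mean in *Cry2* knockouts minus wild-type, 576 to 3189 in *Clk* knockouts minus wild-type and 56 to 174 for the wild-type rhythm, with both highest mean counts without the male wild-type ZT22 library and the highest rhythm count without the female one.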
